A study of Mus musculus with 3 samples.

Results

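The 10 genes described here govern the growth of hair or mark the stem cells of the hair follicle, and their counts were followed in mouse skin wounds 3, 7 and 14 days old (Day 3, Day 7 and Day 14). They were chosen by symbol from the 32285 genes of the count tables, and all 10 were found. *Lef1*, *Msx2*, *Hoxc13*, *Foxn1* and *Dlx3* encode transcription regulators of the hair matrix and shaft, *Shh* and *Bmp4* encode secreted signals, and *Lgr5*, *Sox9* and *Krt15* mark or maintain the stem cells and the outer root sheath. The tissue came from C57BL/6J mice, which carried no other allele or agent by the labels. By the study's methods they were young adult males given full-thickness excisional wounds on the back. Each day was represented by 1 fresh frozen section, placed on a Visium slide, in which spots with positional barcodes capture polyadenylated RNA and every captured molecule is counted by its unique molecular identifier (UMI). With 1 section per day, the day cannot be told apart from the animal, the piece of skin or the phase of the hair cycle in which that skin happened to be, which the labels do not give. All intervals below are 95% intervals and cover counting error only.

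The spots under tissue numbered 664 on Day 3, 549 on Day 7 and 697 on Day 14, and they held 1772259, 4442962 and 4611723 UMIs. Levels are given as UMIs of a gene per 1000000 UMIs of all genes (CPM), summed over the spots under tissue unless stated. Where 3 values of a gene or list are given together, they are in the order of the days. Because the Day 3 section was the shallowest, 3 UMIs corresponded to 1.69 CPM there, and to 0.675 and 0.651 CPM in the Day 7 and Day 14 sections. A spot can hold several cells of different types, so that fewer cells of a type and less RNA per cell cannot be told apart. Molecules are counted near the 3′ end, and levels are compared between samples and spots but not between genes.

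The hair follicle is rebuilt in cycles of growth, regression and rest. During growth, Wnt signals stabilise β-catenin, which acts with LEF1 on the genes of the matrix, the dividing cells at the base of the follicle. SHH made by the follicle epithelium drives proliferation of epithelium and dermal papilla, while BMP signals favour differentiation of the matrix and hold stem cells at rest. The matrix gives rise to the hair shaft and to the inner root sheath that moulds it, and *Krt71* encodes a keratin of that sheath. The outer root sheath surrounds both and is continuous with the epidermis, and the resting stem cells lie in its bulge.

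The sequence just upstream of the transcription start was available from the RefSeq promoters of the GRCm38.p6 build for *Lef1*, *Msx2*, *Foxn1*, *Bmp4* and *Krt71*, that is, for 5 of the 11 genes formed by the 10 genes and *Krt71*. Of the 5 windows of 238 bases that lay outside the annotated gene, 4 are shown here, since they belong to a Wnt effector, a shaft regulator, a ligand and the sheath keratin whose levels were followed together below. They are chr3:131110047-131110284 on the plus strand for the first *Lef1* start, chr11:78386621-78386858 on the minus strand for *Foxn1*, chr14:46390682-46390919 on the minus strand for *Bmp4*, and chr15:101743110-101743347 on the minus strand for *Krt71*. Each is written 5′ to 3′ on the gene's strand. Capitals mark TAAT, the core recognised by homeodomain proteins such as MSX2 and DLX3, and CTTTG, a part of the LEF1 motif, on either strand (ATTA and CAAAG on the other).
Lef1: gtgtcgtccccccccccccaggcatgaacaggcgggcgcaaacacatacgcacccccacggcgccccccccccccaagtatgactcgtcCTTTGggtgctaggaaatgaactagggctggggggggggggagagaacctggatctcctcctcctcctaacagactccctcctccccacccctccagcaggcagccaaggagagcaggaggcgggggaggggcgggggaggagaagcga
Foxn1: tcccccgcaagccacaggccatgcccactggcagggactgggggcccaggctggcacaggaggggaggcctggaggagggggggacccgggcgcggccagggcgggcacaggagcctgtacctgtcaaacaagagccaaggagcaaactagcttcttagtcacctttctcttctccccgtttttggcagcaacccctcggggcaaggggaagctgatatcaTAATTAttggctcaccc
Bmp4: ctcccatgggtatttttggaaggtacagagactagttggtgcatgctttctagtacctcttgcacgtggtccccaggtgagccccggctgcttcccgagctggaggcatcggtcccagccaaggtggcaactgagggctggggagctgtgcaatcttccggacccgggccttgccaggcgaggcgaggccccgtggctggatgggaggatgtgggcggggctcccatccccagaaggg
Krt71: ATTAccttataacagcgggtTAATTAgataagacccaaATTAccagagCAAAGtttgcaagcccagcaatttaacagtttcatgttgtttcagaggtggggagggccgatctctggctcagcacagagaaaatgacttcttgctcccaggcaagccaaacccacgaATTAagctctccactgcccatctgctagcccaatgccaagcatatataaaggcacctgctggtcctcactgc
The *Krt71* window held 5 matches to TAAT, of which 2 overlap each other on opposite strands, and 1 match to CTTTG. The *Foxn1* window held 2 matches to TAAT, which overlap each other on opposite strands, and the *Lef1* window held 1 match to CTTTG. No match to either was in the *Bmp4* window. Such short motifs are common: TAAT was in 54.0% and CTTTG in 47.1% of the 32851 promoter windows of the same length. The SOX motif AACAAT (9.17% of windows), the FOXN1 core GACGC (21.4%) and the GLI motif GACCACCCA (0.222%) had no match in the 4 windows shown, which says only that these letters are not there. The fifth window, of the second *Lef1* start, overlaps the first *Lef1* window and is not printed, and it held 2 matches to CTTTG and 1 to GACGC.

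The transcription regulators of the matrix and shaft had between 1 and 19 UMIs each in the Day 3 and Day 7 sections and between 113 and 767 on Day 14. *Dlx3* (chr11:95120119-95125296), a homeodomain gene needed for formation of the shaft and inner root sheath, had 6 UMIs on Day 3 (3.39 CPM), 17 UMIs on Day 7 (3.83 CPM) and 767 UMIs on Day 14 (166 CPM). The Day 14 level was 43.5-fold (27.0 to 75) that of Day 7 and 49.1-fold (22.5 to 134) that of Day 3. The 2 earlier sections were alike within counting error and far below the last. *Hoxc13* (chr15:102921103-102928814), which controls hair keratin genes, was measured at 4.51 CPM (8 UMIs), 2.03 CPM (9 UMIs) and 125 CPM (577 UMIs) on the 3 days in order. Its Day 14 level was 61.8-fold (32.3 to 136) that of Day 7, the highest ratio of the 10 genes between these days. *Msx2* (chr13:53466884-53473074), a homeodomain gene that maintains shaft differentiation, had 1 UMI on Day 3 (0.564 CPM), 9 UMIs on Day 7 (2.03 CPM) and 471 UMIs on Day 14 (102 CPM). That was 50.4-fold (26.3 to 111) over Day 7, and the ratio to the single UMI of Day 3 was 181 (32.3 to 7164).

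*Lef1* and *Foxn1* shared this order with smaller ratios. *Lef1* (chr3:131110471-131224356), the nuclear partner of β-catenin, was at 7.34 CPM (13 UMIs), 3.60 CPM (16 UMIs) and 51.4 CPM (237 UMIs). The Day 14 level was 14.3-fold (8.61 to 25.4) that of Day 7. *Foxn1* (chr11:78357577-78386558), the gene disrupted in nude mice and required for keratinization of the shaft, was at 3.39 CPM (6 UMIs), 4.28 CPM (19 UMIs) and 24.5 CPM (113 UMIs). Its Day 14 level was 5.73-fold (3.50 to 9.87) that of Day 7 and 7.24-fold (3.22 to 20.1) that of Day 3. For these 5 regulators, the intervals of the Day 14 level lay wholly above those of both earlier days.

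**Figure D1:**
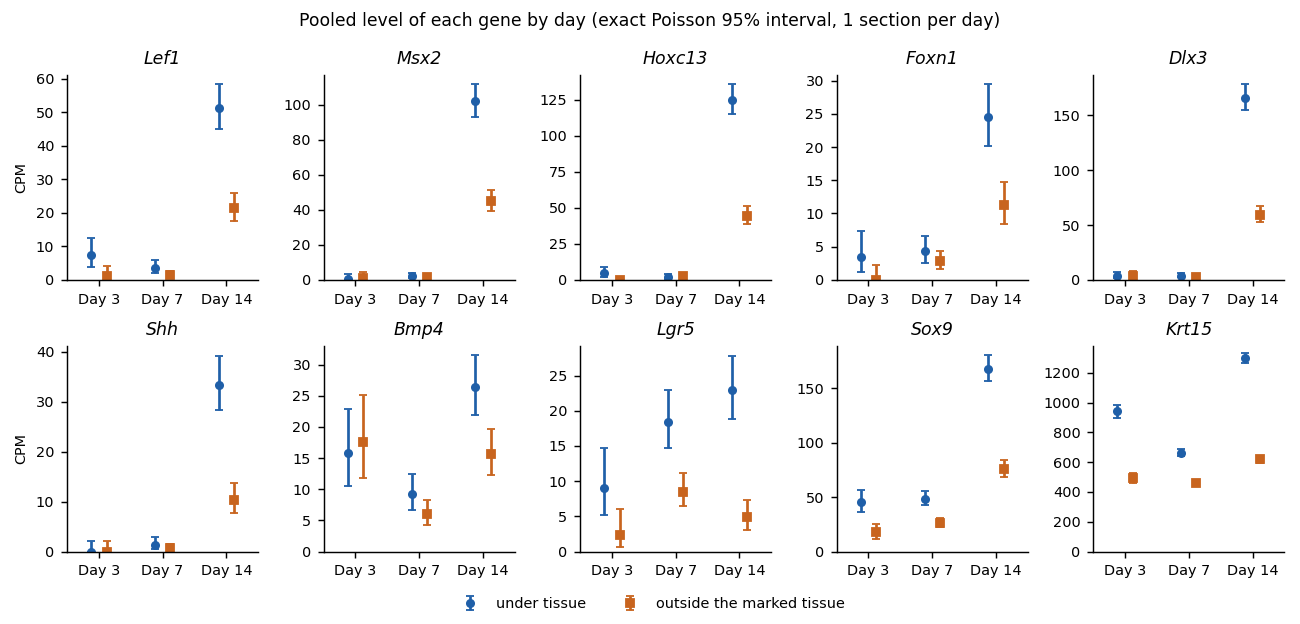
Pooled level in CPM (vertical axis, starting at 0 and scaled for each gene) of the 10 genes on Day 3, Day 7 and Day 14, 1 section per day, in spots under tissue (circles) and outside the marked tissue (squares), with exact Poisson 95% intervals. *Dlx3*, *Hoxc13*, *Msx2* and *Shh* stood near 0 until Day 14, whereas *Krt15*, *Lgr5* and *Bmp4* were measured on every day.

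The ligands differed from each other. *Shh* (chr5:28456815-28467256) had 0 UMIs on Day 3, 6 UMIs on Day 7 (1.35 CPM) and 154 UMIs on Day 14 (33.4 CPM). The Day 14 level was 24.7-fold (11.1 to 68.4) that of Day 7 and at least 19.7-fold higher than Day 3, taking a floor of 3 UMIs for that section. *Shh* was thus absent from the counts of the first section and sparse in the second. *Bmp4* (chr14:46383520-46390669), which is also made by dermal cells including the dermal papilla, was at 15.8 CPM (28 UMIs), 9.23 CPM (41 UMIs) and 26.5 CPM (122 UMIs). It was lower on Day 7 than on Day 3, with a ratio of 0.584 (0.353 to 0.981), and on Day 14 it was 2.87-fold (2.0 to 4.19) Day 7 but 1.67-fold (1.1 to 2.62) Day 3. The Day 14 difference of *Bmp4* was the smaller one against Day 3.

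The genes of the stem cells and outer root sheath were measured in every section. *Sox9* (chr11:112782224-112787760), required for the bulge stem cells and the outer root sheath, was at 45.7 CPM in the first section (81 UMIs), 48.6 CPM in the second (216 UMIs) and 168 CPM in the last (774 UMIs). It differed little between Day 3 and Day 7 (1.06-fold) and on Day 14 was 3.45-fold (2.97 to 4.03) Day 7. *Krt15* (chr11:100131758-100135928), a keratin of basal and bulge keratinocytes, was at 940 CPM (1666 UMIs), 663 CPM (2946 UMIs) and 1299 CPM (5992 UMIs) on the 3 days. The Day 7 section was the lowest for *Krt15*, at 0.705-fold (0.664 to 0.749) Day 3, and Day 14 stood 1.96-fold (1.87 to 2.05) above Day 7 but only 1.38-fold (1.31 to 1.46) above Day 3. *Lgr5* (chr10:115450311-115587780), an R-spondin receptor of the lower bulge and hair germ, was at 9.03 CPM (16 UMIs), 18.5 CPM (82 UMIs) and 23.0 CPM (106 UMIs). Day 7 was 2.04-fold (1.19 to 3.74) Day 3, and Day 14 over Day 7 was 1.25-fold with an interval that held 1 (0.925 to 1.68).

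Counted together, 8 of the 10 genes were at least 2-fold higher on Day 14 than on Day 7, against 10.9% of the 11746 genes with at least 50 UMIs in the 2 sections, and the exceptions were *Lgr5* and *Krt15*. None was at least 2-fold lower, against 7.34% of genes. The median log2 ratio was 3.18 over the 10 genes and 0.13 over all genes counted. Day 14 over Day 3 also gave 8 of 10, against 14.4% of genes, but there the exceptions were *Bmp4* and *Krt15*, and none was at least 2-fold lower, against 6.83%. Between Day 3 and Day 7 only *Sox9*, *Krt15*, *Bmp4* and *Lgr5* reached 50 UMIs, and *Lgr5* alone of these 4 was at least 2-fold higher on Day 7, against 8.04% of genes, with none of the 4 at least 2-fold lower, against 6.49%. This call of *Lgr5* fell below 2-fold with DESeq2 size factors (log2 ratio 0.99) and without muscle-rich spots (log2 ratio 0.85). Of the 8 genes counted on Day 14 over Day 7, 7 had under 50 UMIs on Day 7, and of the 8 over Day 3, 7 had under 50 UMIs on Day 3. These entered the counts only through the Day 14 section, and the counts are given as a description. The comparisons with Day 14 share that section.

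Several marker lists moved with these levels. The 7 inner root sheath genes summed to 2.82, 2.93 and 4825 CPM in the 3 sections, and *Krt71* itself (chr15:101733949-101743109) had 0 UMIs, 1 UMI and 6874 UMIs. Each sheath gene had between 0 and 8 UMIs on Day 7 and between 588 and 6874 on Day 14. The 11 hair shaft genes had between 0 and 7 UMIs on Day 7 and between 22 and 3104 on Day 14, and the 7 pigment genes between 0 and 55 and between 46 and 733. The 8 proliferation genes summed to 261, 200 and 542 CPM, with 6 of 8 at least 2-fold higher on Day 14 than on Day 7. The summed epidermis list stood at 8775, 4785 and 11567 CPM, the order that *Krt15* followed, with 9 of 10 genes at least 2-fold higher on Day 14 than on Day 7. The fibroblast list was at 56388, 82830 and 40969 CPM, with 6 of 10 genes at least 2-fold lower on Day 14 than on Day 7, and the endothelium list was at 423, 425 and 130 CPM. The skeletal muscle list was at 37940, 51216 and 57321 CPM, the sebaceous list at 1855, 567 and 1121 CPM and the T cell list at 32.2, 40.1 and 85.2 CPM. RNA of the inner root sheath and shaft was thus all but uncounted in the first sections, and the part of the cell makeup in each gene's level was not tested.

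The genes around the regulators were described by lists. Among Wnt pathway genes of the follicle, 5 of the 9 with at least 50 UMIs were at least 2-fold higher on Day 14 than on Day 7, with a median log2 ratio of 1.0, and 3 of the 5 had under 50 UMIs on Day 7. The ligand genes *Wnt10b* (5.07-fold, 3.81 to 6.85) and *Wnt11* (4.16-fold) were the highest, and the lowest were *Tcf7l1*, which encodes a repressing partner of β-catenin (1.01-fold), and *Ctnnb1*, which encodes β-catenin (1.39-fold). Each of these ratios was below the 14.3 of *Lef1*. For the hedgehog pathway, 1 of 7 genes passed 2-fold, with a median log2 ratio of 0.43. *Hhip*, which encodes a hedgehog-binding inhibitor and is itself a pathway target, was 8.67-fold (4.17 to 20.8) higher, and *Smo* (1.07-fold) and *Gli2* (1.25-fold) were the lowest. *Hhip* also had under 50 UMIs on Day 7. Against Day 3, 4 of 7 passed, each with under 50 UMIs on Day 3, among them the receptor gene *Ptch1* (4.43-fold, 2.98 to 6.83) and *Gli1* (4.36-fold, 2.21 to 9.80), both named after their values were seen. *Ptch1* and *Gli1* were at 1.84-fold (1.52 to 2.24) and 1.35-fold (0.987 to 1.84) over Day 7, and so differed more between Day 14 and Day 3 than between Day 14 and Day 7, while *Shh*, with 0 and 6 UMIs on the earlier days, was too sparse to be ordered between them.

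Of 8 BMP pathway genes, 3 were at least 2-fold higher and 1 lower on Day 14 than on Day 7. *Id1*, a target of BMP signals, was 3.49-fold (2.97 to 4.11) higher, *Sostdc1*, which encodes a secreted inhibitor of BMP and Wnt, was 3.08-fold (2.47 to 3.88) higher, and *Bmp2* was at 0.850-fold with an interval that held 1 (0.556 to 1.29). *Grem1*, which encodes another secreted BMP inhibitor, was at 0.377-fold (0.206 to 0.663). The 2 inhibitor genes thus differed in opposite directions. Of 14 other transcription regulators of the follicle, 12 were at least 2-fold higher and 1 lower on Day 14 than on Day 7, with a median log2 ratio of 2.17, and 6 of the 12 had under 50 UMIs on Day 7. *Msx1*, the paralog of *Msx2*, was 17.4-fold (11.6 to 27.5) higher, and *Dlx2*, from the family of *Dlx3*, had 93 UMIs against 1, a ratio of 89.6 (15.7 to 3576). *Runx1*, also expressed in blood cells, was at 0.369-fold (0.306 to 0.443), and *Trps1* was at 1.20-fold (0.933 to 1.56).

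Stem cell and papilla markers differed in both directions. Of 8 bulge, isthmus and germ markers, 4 were at least 2-fold higher on Day 14 than on Day 7, led by *Foxc1* (6.53-fold, 4.82 to 9.0) and *Tbx1* (3.83-fold, 3.24 to 4.55). *Cd34*, a bulge marker that vessels and fibroblasts also express, was at 0.648-fold (0.574 to 0.730), and *Nfatc1*, a regulator of bulge quiescence, was at 0.875-fold (0.728 to 1.05). Among 6 dermal papilla markers, *Lepr* (7.83-fold, 4.64 to 14.1) and *Alpl* (6.53-fold, 3.22 to 15.0) were the highest, and *Crabp1* (0.163-fold, 0.143 to 0.185) and *Inhba* (0.380-fold, 0.255 to 0.555) the lowest. Such markers are shared with other dermal cells, and in all 4 papilla markers were at least 2-fold higher and 2 lower. Against Day 3, 1 of 6 papilla markers was at least 2-fold higher and 2 lower. There the intervals of *Lepr* (1.28-fold, 0.890 to 1.88) and *Alpl* (1.67-fold, 0.926 to 3.24) held 1. Of the markers counted as higher than on Day 7, 1 of 4 in the bulge list and 3 of 4 in the papilla list had under 50 UMIs on Day 7.

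Depth differed between the sections, and the shares of spots with a UMI were therefore compared after each spot had been thinned to 1000 UMIs. This kept 426, 525 and 679 spots of the 3 sections and left out 238, 24 and 18 shallower ones. The share of spots with *Dlx3* was then 0.469%, 0.190% and 12.5% on the 3 days, and that with *Hoxc13* was 0.235%, 0% and 10.3%. *Msx2* was in 0% of spots on both earlier days and in 7.66% on Day 14, and *Shh* was in 0%, 0.190% and 4.42%. These 4 genes thus had a UMI in a larger share of spots on Day 14. At a set depth of 1000 UMIs such a share rises with the level of a gene. How far a gene was spread was therefore not told apart from its level. *Lgr5* was in 0.469%, 1.71% and 1.91% of spots. The first of these rest on 2 and 9 spots, with overlapping intervals (0.0569 to 1.69% and 0.787 to 3.23%), and at 500 UMIs per spot the *Lgr5* shares were 0.769%, 0.371% and 0.871%, so no order of the days is read from them. *Krt15* was in 29.6%, 44% and 56.4% of spots, so that its share was higher on Day 7 than on Day 3 while its CPM was lower, and no order of these 2 days is read from it. With this draw of UMIs, all 10 shares were highest on Day 14, including that of *Lgr5*, from which no order is read. The same count was not made over all genes, and it is given as a description only.

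Free RNA on the slide can put a UMI into a spot whose cells lack it. The shares were therefore also taken in muscle-rich spots of Day 14, in which the muscle list had at least 2 times its CPM in the section. Muscle-rich spots can also hold other cells, so the part of free RNA in these shares was not tested. In 139 such spots after thinning, *Dlx3* was in 1.44%, *Hoxc13* in 3.60%, *Msx2* in 2.16%, *Shh* in 1.44%, *Sox9* in 5.04% and *Krt15* in 23.7%. These values were below the shares over the section for each of the 6 genes. That of *Shh* rests on only a few muscle-rich spots, and no difference is read for it. *Lgr5* had no UMI in these spots, where the section had 1.91%, a share too low for this to be read as a difference. *Lef1* had none with this draw, where the section had 3.68%, but was in 1.44% of them with a second draw and in 3.38% unthinned. *Bmp4* was in 1.44% of muscle-rich spots against 2.06% in the section, and *Foxn1* in 0.719% against 1.62%, each on 1 or 2 muscle-rich spots. Unthinned, *Bmp4* was in 6.08% of muscle-rich spots against 14.5% in the section, and *Foxn1* in 0.676% against 13.6%. The median depth before thinning was 4948 UMIs over the spots kept and 2943 UMIs over the muscle-rich ones. The unthinned shares over the Day 14 section ran from 11.9% for *Lgr5* to 44.2% for *Dlx3*, 50.5% for *Sox9* and 85.5% for *Krt15*.

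On the Day 14 section the regulators could be placed against the inner root sheath. A *Krt71* spot was a spot under tissue with at least 5 *Krt71* UMIs, and 352 of the 697 spots (50.5%) were of this kind. They held 91.3% of the *Krt71* UMIs but also 74.7% of all UMIs, and their median depth was 8126 UMIs against 2992 UMIs in the other spots. A definition by UMIs thus also selected deep spots, and each gene is given per UMI of all genes. *Dlx3* had 694 UMIs in *Krt71* spots and 73 in the others, or 201 CPM against 62.6 CPM, a ratio of 3.22 (2.52 to 4.15). The ratio was 2.21 (1.28 to 4.10) for *Foxn1*, with 98 and 15 UMIs, and 2.11 (1.96 to 2.27) for *Krt15*, at 1499 CPM against 710 CPM. These 3 of the 10 genes were at least 2-fold higher in *Krt71* spots, against 7.57% of the 10029 genes with at least 50 UMIs in the section. None was at least 2-fold lower, against 2.23% of genes.

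The other 7 genes were also above 1, from *Msx2* (1.94, 1.5 to 2.54), *Lgr5* (1.90, 1.11 to 3.47), *Sox9* (1.84, 1.52 to 2.26), *Hoxc13* (1.81, 1.44 to 2.29) and *Lef1* (1.67, 1.18 to 2.40) to *Bmp4* (1.54, 0.962 to 2.56) and *Shh* (1.29, 0.868 to 1.97). For *Bmp4* and *Shh* the interval held 1, so no difference between the 2 kinds of spots was resolved at this depth. The median log2 ratio was 0.91 over the 10 genes and 0.32 over all genes. Of the spots with a UMI of a gene, those that were *Krt71* spots made up from 58.6% for *Krt15* to 85.3% for *Foxn1*. These shares are not adjusted for depth, and *Krt71* spots held 74.7% of all UMIs. *Krt15* had a UMI in 596 of the 697 spots, so the range is not read as a difference in overlap. In the same contrast 6 of 7 inner root sheath genes, 8 of 9 hair shaft genes, 7 of 10 epidermis genes and 7 of 14 follicle transcription regulators were at least 2-fold higher, and 7 of 10 muscle genes at least 2-fold lower. *Krt71* spots were thus also richer in epidermis and poorer in muscle, and the part of this in each ratio was not tested. The 6 sheath genes include *Krt71*, whose excess was fixed by the definition of the spots. Without muscle-rich spots, only *Dlx3* of the 10 genes was at least 2-fold higher, against 3.03% of genes.

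A stricter definition changed which genes passed. The 82 spots with at least 20 *Krt71* UMIs held 53.4% of the *Krt71* UMIs in 26.6% of all UMIs, and there *Dlx3* was 3.01-fold (2.61 to 3.48), *Msx2* 2.06-fold (1.70 to 2.48), *Lgr5* 2.04-fold (1.35 to 3.04), *Hoxc13* 1.91-fold (1.61 to 2.26) and *Bmp4* 1.85-fold (1.26 to 2.70) the other spots. *Krt15* was not higher there (0.974, 0.919 to 1.03), and *Sox9* was at 1.27 (1.09 to 1.48). Again 3 of 10 genes passed 2-fold, against 1.9% of all genes, but they were *Dlx3*, *Msx2* and *Lgr5*, and none was at least 2-fold lower, against 1.72%. In the 18 spots with at least 50 *Krt71* UMIs, 7 of 10 genes passed, against 4.43% of genes, from *Shh* (2.07, 1.25 to 3.26) and *Bmp4* (2.15, 1.23 to 3.56) to *Hoxc13* (2.79, 2.24 to 3.46) and *Dlx3* (3.45, 2.89 to 4.11). *Krt15* was lower in these spots (0.740, 0.661 to 0.826), and the intervals of *Sox9* (0.857, 0.630 to 1.14) and *Lgr5* (1.15, 0.511 to 2.28) held 1. *Lgr5* had only 9 UMIs in these spots, and its interval overlapped those of *Shh* and *Bmp4*.

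**Figure D2:**
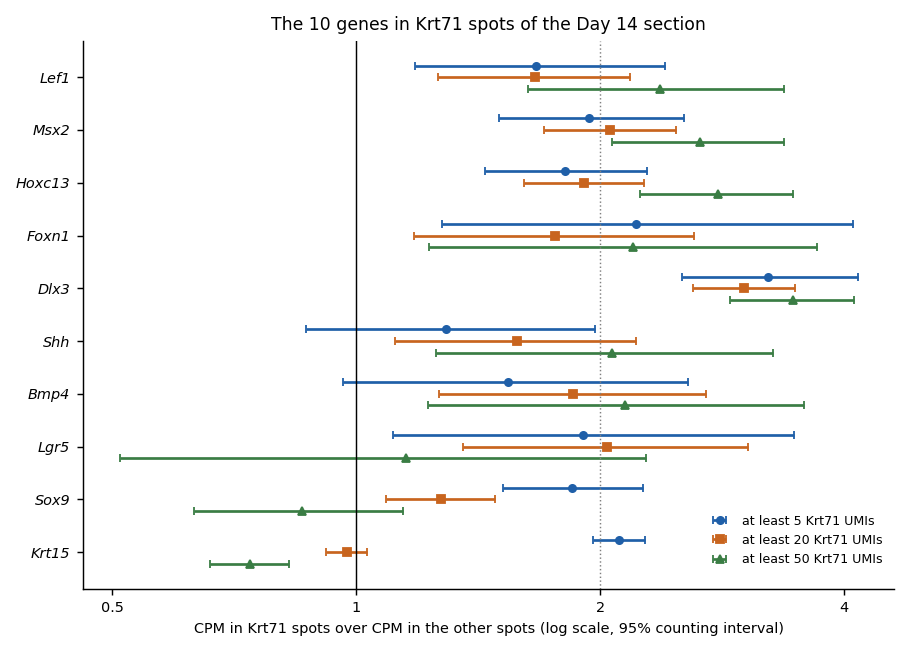
CPM in *Krt71* spots over CPM in the other spots of the Day 14 section (horizontal log axis, exact conditional binomial 95% intervals) for the 10 genes at 3 minimum *Krt71* counts per spot, with a solid line at 1 and a dotted line at 2. *Dlx3* lay between 3.01 and 3.45 at all 3 minimums, while *Krt15* passed from 2.11 to 0.740.

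The levels across bins of *Krt71* counts showed where the orders parted. From spots with no *Krt71* UMI over 1 to 4, 5 to 19 and 20 to 49 to at least 50 UMIs, *Dlx3* was at 27.2, 70.9, 132, 264 and 486 CPM. *Hoxc13* was at 27.2, 89.9, 113, 147 and 308 CPM, and *Msx2* was at 40.8, 64.5, 90.1, 134 and 241 CPM. Each of these 3 genes was higher in every bin than in the one before. *Lef1* went from 22.7 to 111 CPM and *Foxn1* from no UMI to 49.4 CPM. *Shh* went from 22.7 to 64.0 CPM and *Bmp4* from 4.53 to 52.3 CPM. These genes were ordered alike by value, but each had at most 5 UMIs in the first bin. The intervals of their neighbouring bins overlapped, except at the last step of *Lef1*, so most of these steps were not resolved. *Sox9* was highest at 20 to 49 *Krt71* UMIs (220 CPM) and lower beyond (145 CPM), and *Krt15* was highest at 5 to 19 (1623 CPM) and stood at 980 CPM in the last bin. *Lgr5* was at 0, 16.9, 20.3, 40.8 and 26.2 CPM over the bins, the last on 9 UMIs. *Krt10*, a keratin of the suprabasal epidermis, was highest in the same bin as *Krt15*, at 2014 CPM against 491 CPM in the last. The bins held 91, 254, 270, 64 and 18 spots, and their median depth went from 2381 to 19003 UMIs.

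**Figure D3:**
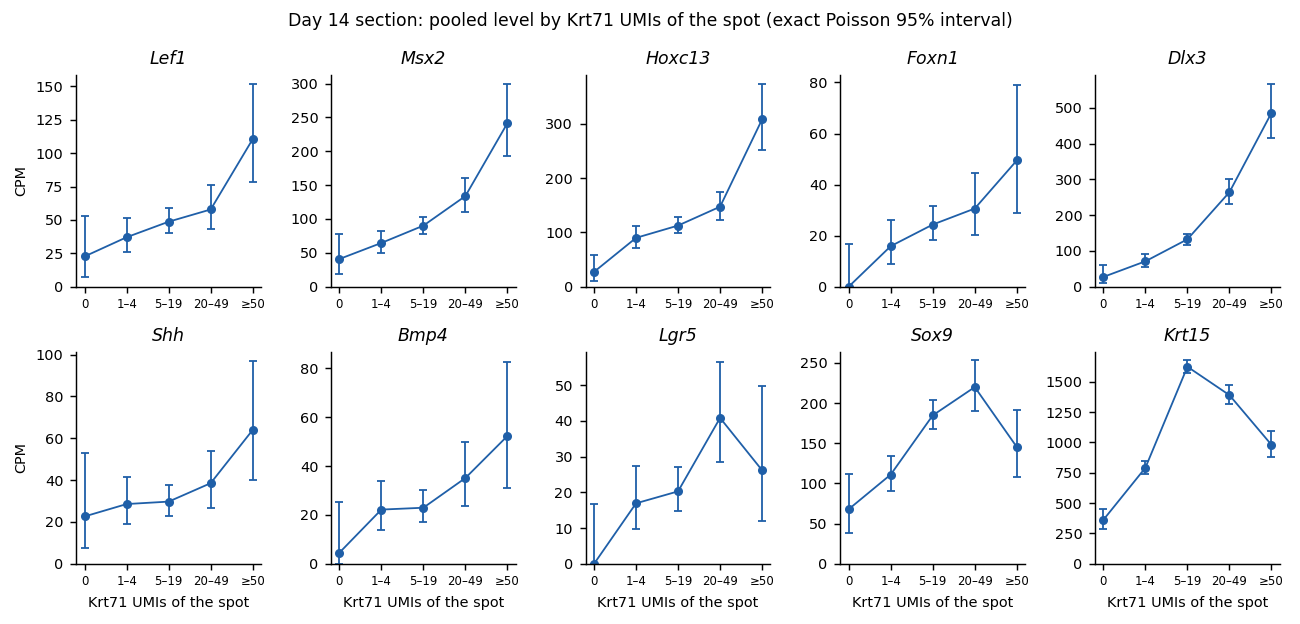
Level in CPM (vertical axis, starting at 0) of the 10 genes by the number of *Krt71* UMIs in a spot (horizontal axis) on the Day 14 section, with exact Poisson 95% intervals. The levels of *Dlx3*, *Hoxc13* and *Msx2* were highest in spots with at least 50 *Krt71* UMIs, at 486, 308 and 241 CPM, while *Krt15* had its highest level, 1623 CPM, in spots with 5 to 19.

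In space, the 82 spots rich in *Krt71* formed 8 groups of adjacent spots, of which one held 66 spots, the next 9 spots, one 2 spots and 5 a single spot each. The 66-spot and the 9-spot group lay apart on the section. In the larger one *Krt71* was at 3237 CPM, *Dlx3* at 344 CPM, *Hoxc13* at 213 CPM and *Msx2* at 174 CPM. In the smaller one *Krt71* was at 1911 CPM, *Dlx3* at 306 CPM, *Hoxc13* at 88.7 CPM and *Msx2* at 96.8 CPM. *Dlx3* was thus at a similar level in both groups, whereas *Hoxc13* and *Msx2* were lower in the smaller one, on 11 and 12 UMIs. *Hoxc13* and *Sox9* had a UMI in all 8 groups, *Dlx3* and *Msx2* in 7, and *Shh* and *Foxn1* in 4. Distances were measured in pitches, the distance between the centres of adjacent spots. *Dlx3* was at 326 CPM in the *Krt71*-rich spots, 149 CPM in the spots next to them, 144 CPM up to 2 pitches, 84.2 CPM up to 4 pitches and 56.5 CPM beyond. *Krt15* was instead highest in the adjacent spots (1760 CPM, against 1274 CPM in the rich spots), and stood at 593 CPM beyond 4 pitches. *Foxn1* was between 22.2 and 35.9 CPM up to 4 pitches and at 2.69 CPM beyond.

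**Figure D4:**
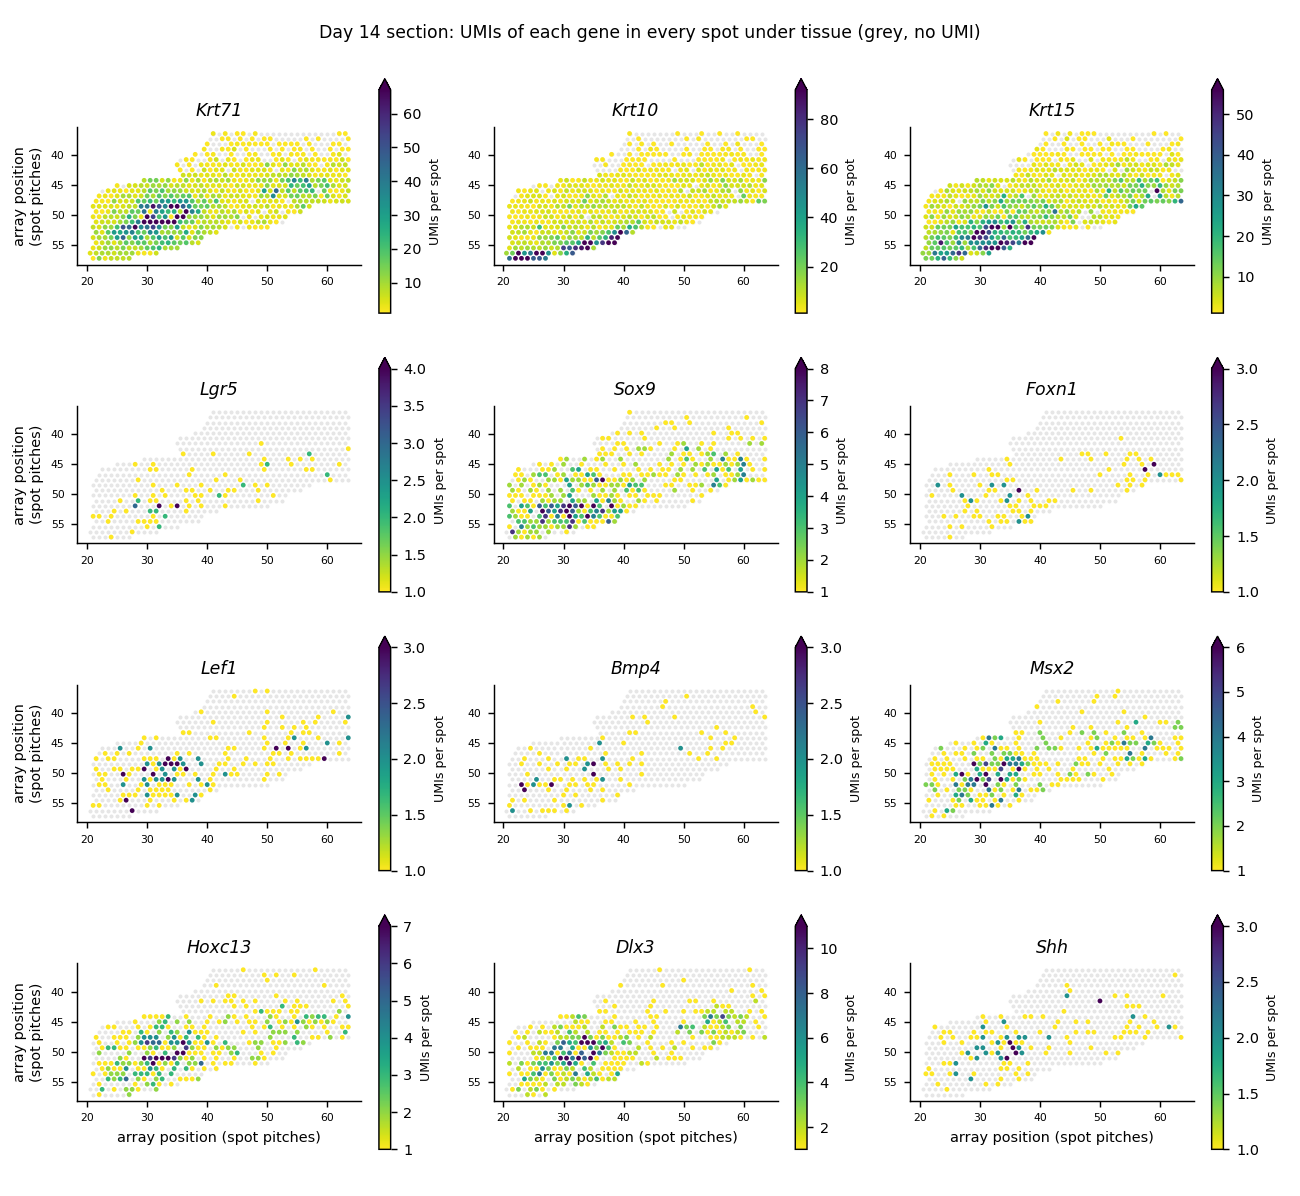
Maps of the Day 14 section, with 1 point for each of the 697 spots under tissue at its place on the slide (both axes in spot pitches) and the colour giving the UMIs of the gene in that spot, grey for none. Each map has its own scale, and the darkest colour also stands for higher counts. *Krt71*, *Dlx3*, *Hoxc13* and *Msx2* were dense in the same large group of spots, with a second, smaller group apart from it. *Krt10* lay along one edge, and *Krt15* was most strongly counted at that edge and less so away from it.

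The depth of each gene beneath the epidermis was described from 45 spots on Day 14 in which *Krt10* had at least 2 times its CPM in the section, and which lay along one edge. The median UMI of *Krt15* and of *Lgr5* lay 2.65 pitches from the nearest such spot, and that of *Sox9* 3 pitches. The medians were 3.61 pitches for *Foxn1* and *Hoxc13*, 4 pitches for *Lef1*, *Dlx3* and *Krt71*, and 4.36 pitches for *Msx2*, *Shh* and *Bmp4*, against 3.61 pitches for the UMIs of all genes. By these medians the stem cell and outer sheath genes lay nearest to the epidermis, but their quartiles overlapped those of the other genes. Of the *Lgr5* UMIs, 4.72% lay in the *Krt10*-rich spots themselves, against 11.5% of all UMIs. The medians carry no interval, and those of the matrix regulators and ligands lay between 3.61 and 4.36 pitches with overlapping quartiles. The upper quartile was 5.57 pitches for *Bmp4* and 6.08 pitches for *Lef1*, *Shh* and all genes. No order of depth among the regulators and ligands is therefore read. *Krt15* was at 2605 CPM in the *Krt10*-rich spots and at 1649, 1457, 854 and 677 CPM at 1 to 2, above 2 to 4, above 4 to 6 and above 6 pitches. *Lgr5* was at 9.39, 28.3, 40.3, 20.5 and 10.8 CPM over the same steps, with its highest level at some distance from the epidermis. *Msx2* was at 52.6, 85.0, 104, 161 and 88.4 CPM and *Shh* at 11.3, 27.1, 35.1, 49.6 and 33.4 CPM, both highest above 4 to 6 pitches. The *Krt10*-rich spots held 23.1% of the *Krt15* UMIs and 11.5% of all UMIs, and from 3.90% (*Shh*) to 12.4% (*Foxn1*) of the UMIs of the other 9 genes.

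**Figure D5:**
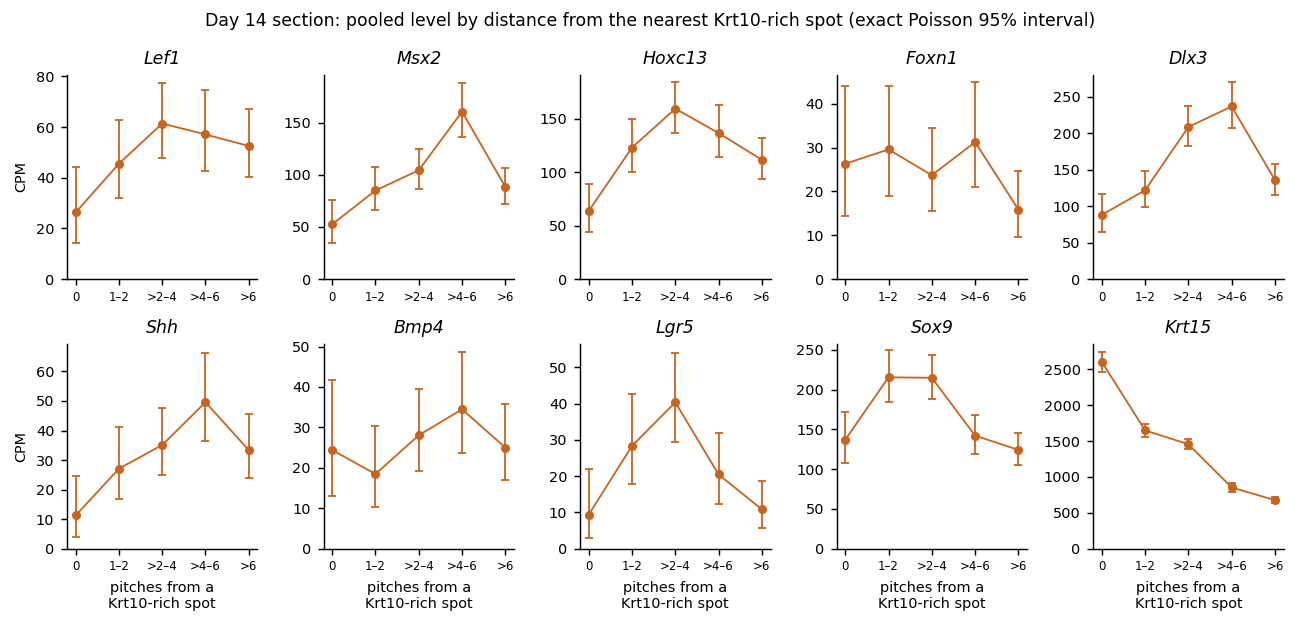
Level in CPM (vertical axis, starting at 0) of the 10 genes by distance in spot pitches from the nearest *Krt10*-rich spot (horizontal axis, 0 for those spots themselves) on the Day 14 section, with exact Poisson 95% intervals. *Krt15* was highest in the *Krt10*-rich spots (2605 CPM), *Lgr5* above 2 to 4 pitches (40.3 CPM) and *Msx2* and *Shh* above 4 to 6 pitches (161 and 49.6 CPM).

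The spots rich in other marker lists were compared in the same way. In epidermis-rich spots, *Krt15* was 3.21-fold the other spots on Day 3, 2.87-fold on Day 7 and 2.38-fold on Day 14. On Day 14 the same spots were lower in *Lef1* (0.50), *Msx2* (0.581), *Hoxc13* (0.515), *Dlx3* (0.532), *Shh* (0.380) and *Sox9* (0.694). *Krt15* thus went with the epidermis in every section, and the 5 genes named before *Sox9* went against it. In the 37 sebaceous-rich spots of Day 14, *Sox9* was 1.64-fold (1.32 to 2.01) and *Krt15* 1.56-fold (1.45 to 1.68) the other spots. In the 36 spots rich in hair shaft genes the ratio was 2.40 for *Dlx3*, 2.08 for *Hoxc13*, 1.87 for *Msx2* and 1.64 for *Sox9*.

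Much of each library was captured outside the marked tissue, between 49% and 59.2% of the UMIs of a slide, and the 10 genes were also counted there. Outside the tissue means outside the marked spots, which the paper describes as selected for the region of interest. Whether spots outside also lie over tissue is not given by the labels. On Day 14 the skeletal muscle list was at 118064 CPM outside and 57321 CPM under the marked tissue. The part of stray RNA in the values outside was not tested. Outside the tissue *Dlx3* was at 3.52, 2.94 and 59.6 CPM, *Hoxc13* at 0, 2.94 and 44.5 CPM and *Msx2* at 1.17, 1.39 and 45.0 CPM in the 3 sections, the order seen under tissue. *Lgr5* was at 2.35, 8.52 and 4.88 CPM outside, so that Day 14 was lower than Day 7 there (0.573, 0.336 to 0.947), unlike under tissue. *Bmp4* on Day 14 over Day 3 was 0.891 (0.576 to 1.41) outside, where no difference was resolved. On Day 14 all 10 genes were lower outside than under tissue, from 0.212 (0.129 to 0.336) for *Lgr5* to 0.593 (0.438 to 0.798) for *Bmp4*. None was at least 2-fold higher outside, against 2.46% of genes, and 9 were at least 2-fold lower, against 13.7% of genes. The median log2 ratio of all genes was -0.54. In the earlier sections fewer of the 10 genes reached 50 UMIs over the slide. On Day 3 these were *Bmp4*, *Sox9* and *Krt15*, of which none was at least 2-fold higher outside (3.4% of genes) and *Sox9* was lower (15.9% of genes), at 0.385 (0.245 to 0.593). On Day 7 *Lgr5* joined them, with none of the 4 higher (3.36% of genes) and *Lgr5* lower (8.91% of genes), at 0.462 (0.322 to 0.657).

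Per 100 *Krt71* UMIs, the interval of the ratio of outside to under tissue held 1 for 5 of the 10 genes. *Msx2* had 7.03 UMIs outside and 6.85 under tissue, *Lef1* had 3.35 and 3.45, *Foxn1* had 1.76 and 1.64, and *Sox9* had 11.8 and 11.3. *Shh* had 1.62 and 2.24, a ratio of 0.725 (0.515 to 1.01). Lower ratios outside were found for *Hoxc13* (0.830, 0.705 to 0.973), *Dlx3* (0.835, 0.726 to 0.959) and above all *Lgr5* (0.495, 0.301 to 0.782). *Bmp4* (1.38, 1.02 to 1.86) and *Krt15* (1.11, 1.06 to 1.16) had higher ratios. *Krt71* itself was at 861 CPM in spots up to 1 pitch from the marked tissue and at 455 CPM beyond 10 pitches. *Dlx3* was at 91.6 and 48.6 CPM over the same distance. Outside the marked tissue 147 spots had at least 5 *Krt71* UMIs, and 1 had at least 20. Of the 147 spots, 21 lay within 1 pitch, 54 up to 5 pitches, 50 up to 10 pitches and 22 beyond.

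Likeness of pattern was measured as Pearson's r of log-scaled counts over the 697 spots of Day 14, among 10029 genes. The spots share 1 library and differ in depth, and r is given as a description. The gene most like *Dlx3* was *Krt71* (r = 0.412), followed by the inner root sheath keratins *Krt27* (0.403) and *Krt25* (0.388). *Hoxc13* was most like *Krt71* (0.348), the shaft gene *S100a3* (0.317) and *Krt73* (0.316), and *Msx2* most like *Krt71* (0.293), the metallothionein gene *Mt2* (0.288) and *Krt25* (0.284). With each spot summed with its adjacent spots, r with *Krt71* was 0.780 for *Dlx3*, 0.651 for *Hoxc13* and 0.620 for *Msx2*. *Krt15* was instead most like the basal keratins *Krt5* (0.623) and *Krt14* (0.620) and *Krt77* (0.609), and among the genes most like *Sox9* were the outer root sheath keratin *Krt17* (0.356) and *Krt15* itself (0.356). The highest r of *Lef1*, *Foxn1*, *Shh*, *Bmp4* and *Lgr5* with any gene lay between 0.211 and 0.242, which at these counts names no partner.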

How the data were processed

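Visium libraries of 1 skin wound section each on Day 3, Day 7 and Day 14 were analysed. The deposited values are raw UMI counts that the authors obtained for every gene in every spot using Space Ranger 1.3.0, and the submitters' processing notes name the mm10 build. All 4992 spots of each slide are in the counts, with a list marking spots under tissue. The same 4992 barcodes occur on the 3 slides, as the array is fixed. Groups were taken from the labelled day.

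Levels are summed UMIs of a gene per 1000000 summed UMIs (CPM). Sums carry exact Poisson, shares exact Clopper-Pearson, and ratios exact conditional binomial 95% intervals, which hold no variation between animals or sections. No test was made, since each day had 1 section and spots are not replicates. Counts past 2-fold used genes with at least 50 UMIs over both groups, and alternatives kept the genes that passed this minimum in the comparison reported. Where a group had no UMI, 3 UMIs were taken as the floor. Shares of spots used spots thinned to 1000 UMIs without replacement (seed 1). Likeness used log1p of UMIs per 10000. Spots rich in a list had at least 2 times the CPM of the list in their section. The ratio intervals and the ranking were tested on simulated data.

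Named were the 10 genes, *Krt71*, the 2 highest and 2 lowest genes of a pathway list, and the 3 genes most like each of the 10, of which some are not reported here. The 10 genes, the 16 lists and the tests were chosen with earlier results of these data known. The bins of *Krt71* counts, the groups and distances of spots and the *Krt10*-rich spots were chosen after seeing the data. One listed shaft gene, *Krt85*, was not analysed here, and *Foxi3* had no UMI.

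Gene positions are those of GENCODE M21 on GRCm38, and promoter windows run from 250 to 13 bases before the RefSeq start. Windows inside the annotated gene (*Msx2* and 2 of 4 *Lef1* starts) and the second *Lef1* window, which overlaps the first, were not printed. *Hoxc13*, *Dlx3*, *Shh*, *Lgr5*, *Sox9* and *Krt15* have no entry in the promoter table used here. Python 3.11.15 with numpy 2.4.6, scipy 1.17.1, pandas 2.3.3 and matplotlib 3.10.9, and R 4.3.3 with edgeR 4.0.16 and DESeq2 1.42.0 (scaling factors only) were used. Alternatives were other denominators, folds, spot sets, *Krt71* definitions, thinning depths and correlation measures.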

Additional observations from a re-analysis of the deposited data

Results flagged for a closer look

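*Krt15* stood on opposite sides in fibroblast-rich spots on Day 3 and Day 14. These are spots in which the fibroblast list had at least 2 times its CPM in the section. In the 38 such spots of Day 3 it was at 1727 CPM against 820 CPM in the other spots, a log2 ratio of 1.08, and in the 47 such spots of Day 14 it was at 726 CPM against 1342 CPM, a log2 ratio of -0.89. The difference between the days was not tested, as each day had 1 section. The epidermis list in the same spots was at 8121 CPM against 8875 CPM on Day 3 and at 5961 CPM against 11980 CPM on Day 14, and its part in the *Krt15* values was not tested. Day 7 had 1 such spot, too few for a value.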

How the results depend on the processing

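No paired analysis was possible because each day had 1 section. Of 58 alternatives for the counts of genes past the fold, for the shares and for likeness, 44 were within 1.5 times the value reported. The count on Day 7 over Day 3 was 0 at 3-fold, with DESeq2 size factors and without muscle-rich spots, where 2.73%, 7.59% and 8.06% of all genes passed. Without the *Krt71* spots and their adjacent spots of Day 14, which left 158 spots and 441954 UMIs, 5 genes in place of 8 were at least 2-fold higher than on Day 3 (7.77% of all genes), and 5 than on Day 7 (7.09%). *Foxn1*, with 1 UMI left, then stood at a log2 ratio of -0.58 to Day 3 and -0.92 to Day 7. *Hoxc13* (22.3-fold), *Msx2* (15.6-fold), *Shh* (10.1-fold), *Dlx3* (8.87-fold) and *Lef1* (6.91-fold) were above Day 7 there, each on under 50 UMIs in both groups together, and *Lgr5* had 0 UMIs. The 3 genes at least 2-fold higher in *Krt71* spots became 9 at 1.5-fold (27% of all genes) and 1 at 3-fold (0.987%), 9 at a minimum of 1 (43.6%) or of 2 (32.9%) *Krt71* UMIs and 7 at 50 (4.43%). They became 9 outside the tissue (23.5%), 9 against spots not adjacent to a *Krt71* spot (39.5%), 7 against the 12 epidermis-rich other spots (41.1%), and 1 without muscle-rich spots (3.03%, chosen after seeing the data). The log2 ratio of *Krt15* in *Krt71* spots turned to -0.038 at 20 and -0.44 at 50 *Krt71* UMIs, -0.045 in the 333 spots with a *Krt71* level of at least 1000 CPM, and -0.24 against epidermis-rich spots. The count of genes at least 2-fold higher outside the tissue was 0 in every alternative run, and with seed 2 the shares of 9 genes, not 10, were highest on Day 14. Of 429 alternatives for single genes, 310 stayed within their interval, 113 moved and 6 turned direction. The causes were not tested.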
